A study of Mus musculus with 3 samples.

Results

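Translation initiation factors are the proteins that bring a messenger RNA, the initiator tRNA and the ribosome together at a start codon. By the rule used here, their genes are all genes whose mouse symbol begins with Eif, with Eif2s3y, 1 other Eif2 gene and symbols holding -ps left out. The rule used names and no measured value, and it found 53 genes among the 22457 in the table. They were followed in poly(A) RNA of primary regulatory T cells, a CD4 lineage that holds immune responses back (Treg cells), of male adult mouse origin, at 4 months of age. All 3 libraries, numbered 1, 2 and 3 as the labelled technical replicates, come from 1 biological replicate and were sheared to a labelled size range of 100 to 300. No genotype, strain, treatment, sorting scheme or number of pooled animals was found in the labels, and the libraries form 1 group. No comparison between conditions exists, and each SD and p-value below describes technical spread alone.

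Initiation runs as a cycle. The eIF2 complex carries the initiator tRNA to the small ribosomal subunit with the help of eIF1, eIF1A, eIF3 and eIF5, while eIF4F, made of the cap-binding eIF4E, the scaffold eIF4G and the RNA helicase eIF4A, prepares the 5′ end of the mRNA. After the start codon is found, eIF5B joins the large subunit, and eIF2 is recharged with GTP by eIF2B. Stress kinases that phosphorylate eIF2 alpha and the eIF4E-binding proteins that mTOR controls are the best known brakes. In T cells, activation raises protein synthesis through these steps.

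The libraries held 3316275, 3079004 and 2782259 counts in libraries 1, 2 and 3. Levels are in CPM, the count divided by the library total and scaled to 1e+06. Detection here means at least 1 CPM in all 3 libraries. In the data the cells carried Treg markers: all 7 fixed markers were detected, Foxp3 with 448, 447 and 407 counts, while the CD8 T cell marker Cd8a had 0, 0 and 1. The other CD8 marker, Cd8b1, had 71, 62 and 89 counts. Markers of other cells were present at low and uneven levels. The 8 B cell markers, all detected, summed to 148, 427 and 374 CPM in libraries 1, 2 and 3, the 3 plasma cell markers (2 detected) to 5.73, 26.6 and 71.9, the 6 erythroid markers (2 detected) to 6.33, 13.97 and 30.9, and the 6 monocyte and macrophage markers (3 detected) to 45.5, 118 and 40.3. The 4 dendritic cell markers (1 detected) summed to 5.13, 19.8 and 11.1 CPM. H2-Ab1 (157, 490 and 293 counts) and H2-Aa (144, 404 and 279) made up most of the B cell marker sum. Both were highest in library 2. Cd79b, next by mean CPM, had 148, 165 and 204 counts and was highest in library 3. Each of the 8 B cell markers had its lowest count in library 1. No NK cell or neutrophil marker was detected, and the neutrophil gene Mpo was at 0 in every library. In a bulk sample, fewer cells of a type and less RNA per cell cannot be told apart.

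Of the 53 Eif genes, 50 were detected, against 47.3% of all genes. Together they took 1.12% ± 0.0387 of the counts (SD, n = 3 libraries). Their median level was 128 CPM, against 45.6 CPM over the 10611 detected genes. The eIF3 genes held 41.4% of all Eif counts and the eIF4 genes 33.7%, followed by eIF2 genes with 13.3%, eIF5 genes with 7.00%, eIF1 genes with 3.55% and Eif6 with 0.977%. CPM is not scaled for length. Levels of different genes are therefore compared as count density, the mean count per coding base, taken over the longest annotated coding sequence. Median density was 0.343 counts per coding base over Eif genes and 0.0972 over detected genes.

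**Figure D1:**
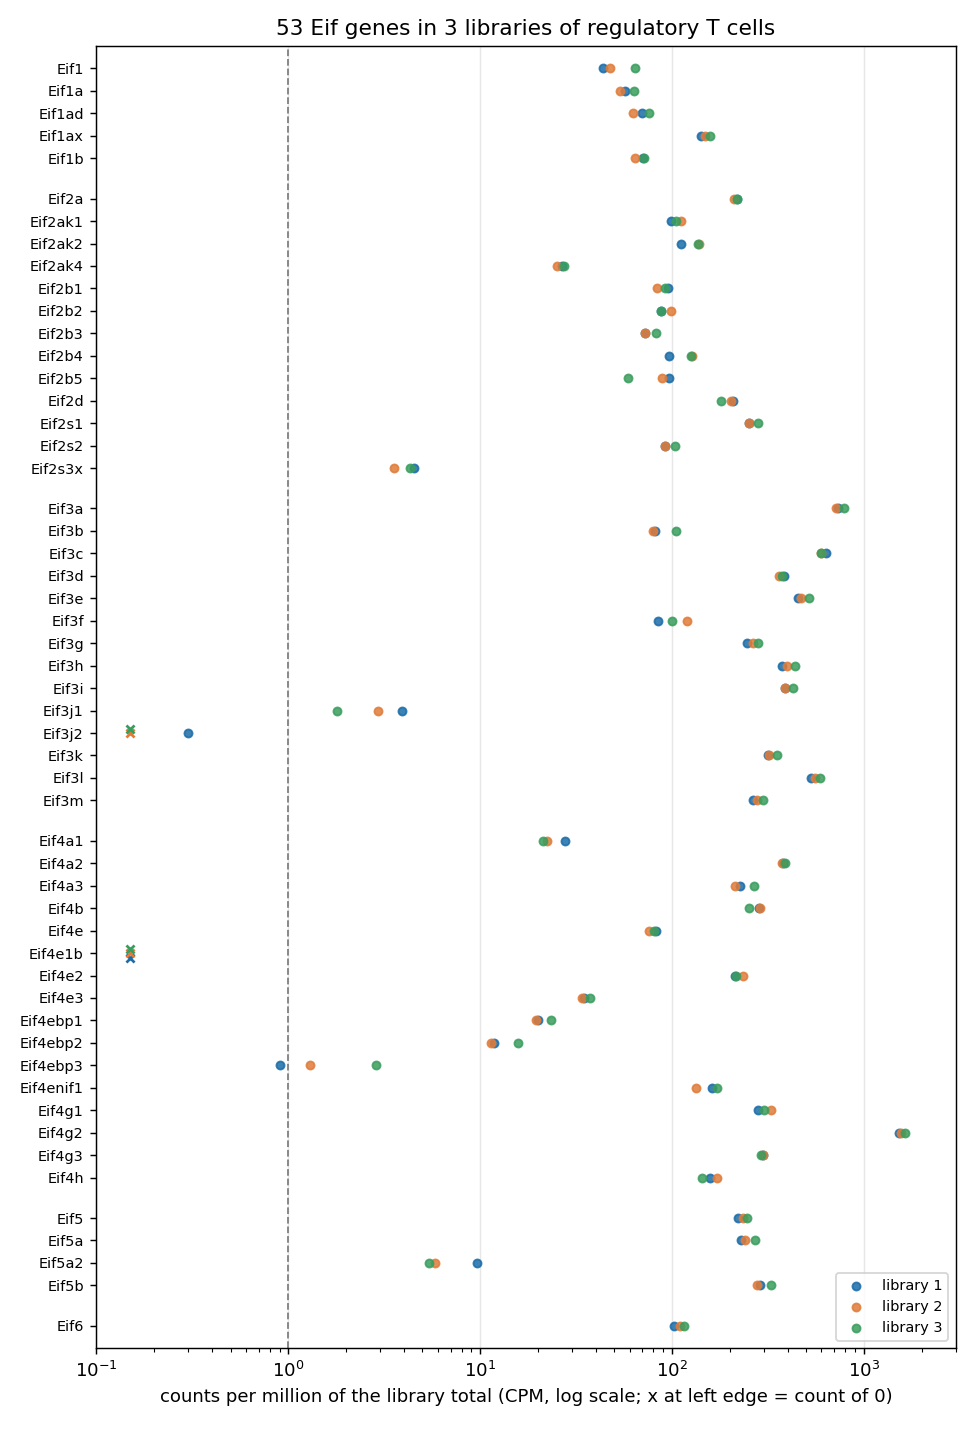
CPM (log axis) of each of the 53 Eif genes, in blocks by factor number, with 1 point per library; crosses at the left edge are counts of 0 and the dashed line is 1 CPM. Eif4g2 stood highest, above 1500 CPM in every library, and Eif2s3x, Eif3j1, Eif3j2, Eif4e1b and Eif4ebp3 lay below 5 CPM in every library.

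Sequence shared with other genes limited what the counts of several members can say, because the way reads with several matches were counted is not given in the sources used here. Each coding sequence was searched for 31-mers that also stand in GENCODE transcripts of other genes. In 29 members the share was under 10%, including 15 with none, and in 5 it was 90% or more: Eif1, Eif2s3x, Eif3j1, Eif3j2 and Eif4a1. Annotated pseudogenes held shared 31-mers of 33 members. Copies that GENCODE does not annotate as transcripts were not searched. For 3 of the 5 members, the middle 60 bases of the longest coding exon are shown with the pseudogene that shares most of the coding sequence. For Eif4a1 and Eif1 a related gene is shown as well. Eif2s3y, a related gene of Eif2s3x, is not shown. Capitals mark bases that differ from the member on the top line (GENCODE M21, GRCm38).
Eif4a1, chr11:69669133-69669192, minus strand: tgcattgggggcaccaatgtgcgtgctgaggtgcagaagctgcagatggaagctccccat
Eif4a-ps4, chr1:60704331-60704390, plus strand: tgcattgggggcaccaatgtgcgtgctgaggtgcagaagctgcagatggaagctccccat
Eif4a2, chr16:23110039-23110098, plus strand: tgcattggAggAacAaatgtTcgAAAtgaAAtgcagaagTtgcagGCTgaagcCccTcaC
Eif2s3x, chrX:94196329-94196388, minus strand: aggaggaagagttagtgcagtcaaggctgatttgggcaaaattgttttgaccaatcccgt
Gm2223, chrX:33506830-33506889, plus strand: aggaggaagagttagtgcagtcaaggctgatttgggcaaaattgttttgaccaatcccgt
Eif1, chr11:100320718-100320777, plus strand: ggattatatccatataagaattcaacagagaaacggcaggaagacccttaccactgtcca
Gm10157, chr9:118837812-118837871, minus strand: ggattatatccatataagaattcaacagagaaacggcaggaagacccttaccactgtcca
Eif1b, chr9:120494159-120494218, plus strand: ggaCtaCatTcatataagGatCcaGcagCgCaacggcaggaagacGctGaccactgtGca

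The pseudogene stretches were identical to Eif4a1, Eif2s3x and Eif1, while Eif4a2 differed from Eif4a1 at 16 of these 60 bases and Eif1b from Eif1 at 11. A read from these stretches of Eif4a1, Eif2s3x or Eif1 has more than 1 place of origin in the annotation. The Eif4a2 and Eif1b stretches matched no other annotated gene over all 60 bases, although 39.8% of the coding 31-mers of Eif4a2 as a whole are shared. Median density was 0.0115 counts per coding base in the 5 members that share 90% or more, 0.553 in the 19 members that share 10 to 90% and 0.284 in the 29 that share less. These medians are a description, and the levels of the 5 highly shared members are uncertain.

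**Figure D2:**
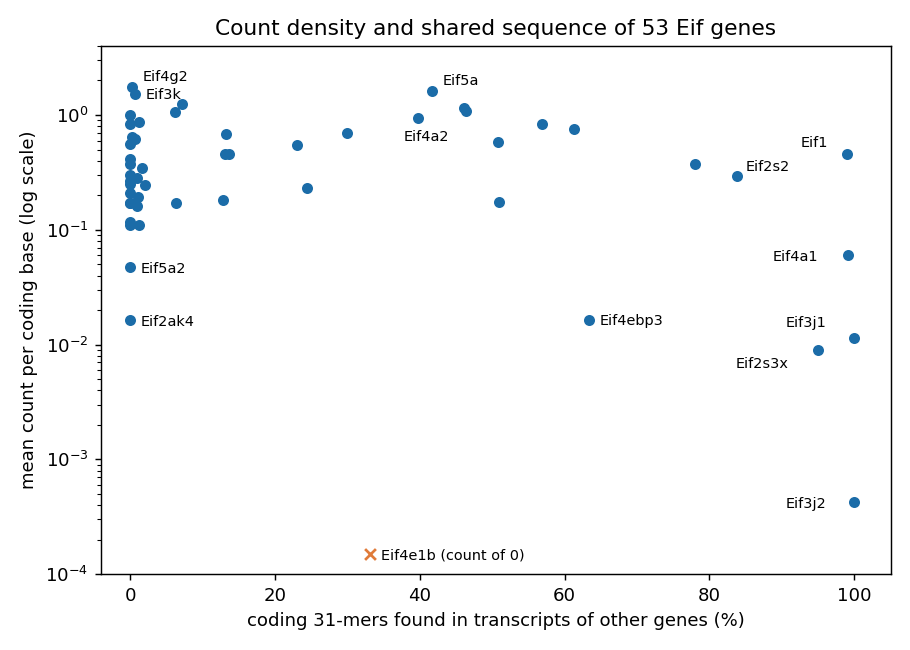
Mean count per coding base over the 3 libraries (log axis) against the percentage of coding 31-mers found in transcripts of other genes, 1 point per Eif gene. Of the members sharing 90% or more, Eif1 had 0.460 counts per coding base and the other 4 had 0.0602 or less.

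The factors that scan for the start codon were all detected. Eif1ax, 1 of 2 genes for eIF1A on this list, was highest of the eIF1 genes with 469, 458 and 438 counts in libraries 1, 2 and 3 (149 ± 8.01 CPM; chromosome X, 159372178 to 159389928, plus strand). Eif1a, the other eIF1A gene, had 189, 165 and 177 counts. Per coding base Eif1ax was higher in each library (log2 ratio of Eif1a over Eif1ax -2.18 ± 0.095 SD, n = 3). The size of that ratio depends on the length used, as the coding sequences are 762 bases for Eif1a and 432 for Eif1ax. By exon length the ratio was -1.02. Eif1, which guards start codon choice, had 144, 146 and 178 counts, or 43.4, 47.4 and 63.98 CPM, with library 3 highest. Its paralog Eif1b, which matched Eif1 at 81.1% of coding bases without sharing a 31-mer, had 235, 198 and 198 counts. The log2 density ratio of Eif1 over Eif1b was -0.43 ± 0.28 (SD, n = 3), with 99.03% of Eif1's coding 31-mers shared with other transcripts. Eif1ad had 69.4 ± 6.76 CPM, and 15.3% of its exon length overlaps the opposite-strand gene Banf1, which matters because strand use in counting is not given in the sources used here.

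The 3 subunits of eIF2, which binds GTP and the initiator tRNA, differed widely in counts. Eif2s1, the alpha subunit that the stress kinases phosphorylate, had 830, 771 and 781 counts (260.5 ± 17.5 CPM; chromosome 12, 78861819 to 78887010, plus strand). Eif2s2, the beta subunit, had 304, 284 and 287 counts. Eif2s3x, the X-linked gamma subunit, had only 15, 11 and 12 counts (4.14 ± 0.499 CPM; chromosome X, 94188707 to 94212862, minus strand). Per coding base Eif2s1 was 2.86-fold above Eif2s2 (exact 95% interval of summed counts 2.65 to 3.09), and Eif2s2 was 32.8-fold above Eif2s3x (23.7 to 46.7). The share of coding 31-mers found elsewhere was 56.9% for Eif2s1, 83.8% for Eif2s2, where the pseudogene Gm9892 holds all of it, and 95.02% for Eif2s3x, where Gm2223 does. Eif2s3y, the Y-linked gamma subunit that the rule leaves out, had 1038, 934 and 963 counts at the same coding length of 1416 bases. The low count of Eif2s3x therefore stands beside a high count of its Y-linked counterpart and beside the shared stretch printed above, and the part of either in it was not tested.

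The 5 subunits of eIF2B, the exchange factor that recharges eIF2 with GTP, had mean levels between 75.8 and 117 CPM. Eif2b5, the catalytic epsilon subunit, had 320, 274 and 163 counts, or 96.5, 88.99 and 58.6 CPM (chromosome 16, 20498817 to 20509323, plus strand). Library 3 was lowest, and its exact 95% Poisson interval, 49.9 to 68.3 CPM, did not reach those of library 1 (86.2 to 108) or library 2 (78.8 to 100.2). Eif2b4, the delta subunit, had 321, 393 and 348 counts, or 96.8, 128 and 125 CPM, and was lowest in library 1. Of its exon length, 7.85% overlaps the opposite-strand gene Snx17. Eif2b1, Eif2b2 and Eif2b3 had 317, 256 and 255, 290, 303 and 245, and 241, 222 and 230 counts. None of the 5 shared a coding 31-mer with another gene, and density ran from 0.117 counts per coding base for Eif2b5 to 0.302 for Eif2b1.

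Among the eIF2 alpha kinases on the list, Eif2ak2 (PKR, which senses double-stranded RNA and is an interferon response gene) had 367, 423 and 379 counts, or 111, 137 and 136 CPM, lowest in library 1. Eif2ak1 (HRI, which responds to low haem, and whose exons overlap the opposite-strand genes Aimp2 and Ankrd61 over 11.6% of their length) had 327, 342 and 291 counts, and Eif2ak4 (GCN2, which senses amino acid shortage) had 88, 77 and 76. Per coding base Eif2ak2 was 1.46-fold above Eif2ak1 (1.34 to 1.60). Eif2ak4, with the low density of 0.0162 and no shared 31-mer, was below Eif2ak1 in each library (log2 ratio -3.41 ± 0.14 SD, n = 3). Eif2a and Eif2d, which can deliver tRNA without eIF2, had 725, 648 and 604 and 685, 627 and 499 counts.

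The eIF3 complex is the scaffold on the small ribosomal subunit, and its genes varied widely in count density. Leaving out the loosely bound subunit gene Eif3j1, 12 subunits had densities between 0.111 and 1.53 counts per coding base, a 13.8-fold range. Eif3k was densest per coding base with 1044, 981 and 977 counts over 654 coding bases (chromosome 7, 28971372 to 28981864, minus strand). By exon length Eif3h was densest, with 0.762 counts per exon base against 0.371 for Eif3k. Eif3a, the longest subunit and the core of the complex, had the most counts of the group with 2434, 2211 and 2190 (746 ± 36.2 CPM; chromosome 19, 60761117 to 60790658, minus strand), followed by its core partner Eif3c with 2097, 1849 and 1660. Eif3b, the third core subunit, was sparsest at 0.111, with 269, 244 and 290 counts, although only 1.22% of its coding 31-mers were shared.

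The remaining subunits, Eif3j1 aside, lay between Eif3b and Eif3k in density. Eif3i and Eif3g, which bind Eif3b, had densities of 1.25 and 0.833, and Eif3d, which can bind the mRNA cap, had 0.691 with 28.1% of its 31-mers in the antisense transcript Gm17638. Of the subunits that build the octamer around Eif3a and Eif3c, Eif3h had 1.16, Eif3e 1.09, Eif3l 1.01, Eif3m 0.761 and Eif3f 0.284. Eif3f had 280, 367 and 277 counts, or 84.4, 119 and 99.6 CPM, with library 2 highest. Eif3e and Eif3h had shares of 46.4% and 46.1% and Eif3m of 61.4%, each with pseudogenes.

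Eif3j1 and its copy Eif3j2 were nearly unread. Eif3j1 had 13, 9 and 5 counts (2.88 ± 1.06 CPM), and Eif3j2 had 1, 0 and 0, which missed detection. In libraries 2 and 3 a count of 0 allows up to 0.974 and 1.08 CPM (3 counts, counting error only). All coding 31-mers of both genes stand in other transcripts, and 99.7% of those of Eif3j1 are in Eif3j2 itself, so the division of reads between them is uncertain. In addition 18.99% of the exon length of Eif3j1 overlaps the opposite-strand gene Spg11.

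Within eIF4F, the scaffold family held the most counted Eif gene. Eif4g2 (DAP5, a relative of eIF4G that lacks the eIF4E-binding part) had 5021, 4786 and 4541 counts, or 1567 ± 60.02 CPM and 1.76 counts per coding base (chromosome 7, 111067750 to 111083030, minus strand). It stood at the 99.99th percentile of all genes by CPM. Its coding sequence is known for a start at GTG in place of ATG, and the annotated beginnings of Eif4g2 and of Eif4g1 show this, with the start codon in capitals. The Eif4g2 stretch runs over an exon junction.
Eif4g2, chr7:111080946-111081547, minus strand: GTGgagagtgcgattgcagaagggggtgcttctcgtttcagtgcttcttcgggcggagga
Eif4g1, chr16:20673902-20673961, plus strand: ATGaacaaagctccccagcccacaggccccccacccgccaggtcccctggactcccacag

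The classical scaffolds were lower. Eif4g1 had 930, 1013 and 835 counts, or 280.4, 329 and 300.1 CPM, highest in library 2, and Eif4g3 had 986, 917 and 813. Per coding base Eif4g1 and Eif4g3 were close, with a ratio of 1.13 (exact interval 1.07 to 1.19), while Eif4g1 was at 0.110 of Eif4g2 (0.105 to 0.114). All 3 genes shared at most 1.11% of their 31-mers.

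Among the eIF4A helicases, Eif4a2 had 1258, 1153 and 1083 counts (381 ± 7.53 CPM; chromosome 16, 23107444 to 23114136, plus strand). Eif4a1, its close relative, had 92, 69 and 59 (23.8 ± 3.48 CPM; chromosome 11, 69666936 to 69672423, minus strand), with log2 density ratios of -3.77, -4.06 and -4.19 in libraries 1, 2 and 3. The stretches printed above belong to this pair: 99.2% of the coding 31-mers of Eif4a1 are shared, 97.4% with the pseudogene Eif4a-ps4 alone, against 39.8% in Eif4a2. The part of shared sequence in the low count of Eif4a1 was not tested. Eif4a3, which marks exon junctions on spliced mRNA, had 749, 654 and 747 counts, or 226, 212 and 268 CPM, with library 3 highest, and it shared 50.8% of its 31-mers, the most with Gm5580. The helicase cofactors Eif4b and Eif4h had 940, 882 and 703 and 520, 528 and 397 counts.

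The cap-binding genes were led by Eif4e2 (4EHP, which binds the cap without recruiting eIF4G), with 707, 719 and 600 counts and 0.869 counts per coding base. Eif4e, the cap-binding subunit of eIF4F, had 275, 233 and 224 counts and 0.375 per coding base, with 77.9% of its 31-mers shared, most of them with the pseudogene Gm7327. Eif4e was at 0.431 of Eif4e2 per coding base (0.396 to 0.470). Eif4e3 had 115, 104 and 104 counts and overlaps the gene Gm20696 on the same strand, and by total exon length in place of coding length it was slightly denser than Eif4e (log2 ratio of Eif4e over Eif4e3 -0.08, against 1.11 by coding length). Eif4e1b, known from germ cells, was at 0 in libraries 1, 2 and 3, where 3 counts would be 0.905, 0.974 and 1.08 CPM.

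The eIF4E-binding proteins, which mTOR releases from eIF4E by phosphorylation, were low. Eif4ebp1 had 66, 60 and 65 counts (20.9 ± 2.13 CPM), Eif4ebp2 39, 35 and 44 (12.98 ± 2.46) and Eif4ebp3 3, 4 and 8, which missed detection in library 1. Eif4ebp1 was 1.66-fold above Eif4ebp2 per coding base (1.31 to 2.11). Eif4ebp3 shared 63.4% of its 31-mers, all with 1 other annotated protein-coding gene. Eif4enif1 (4E-T, which carries eIF4E into the nucleus) had 538, 412 and 476 counts, or 162, 134 and 171 CPM, lowest in library 2.

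**Figure D3:**
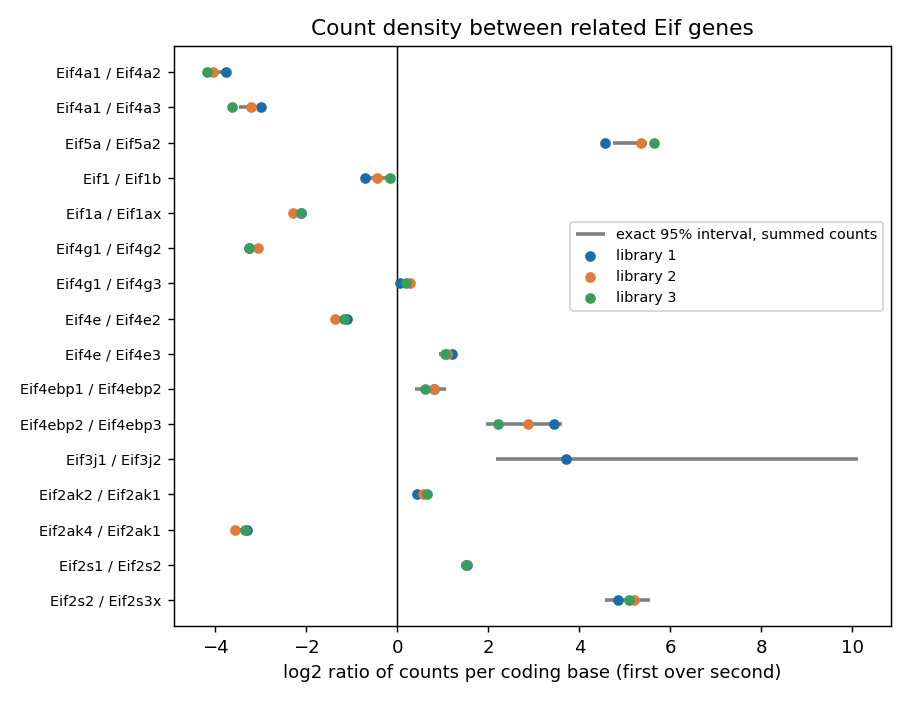
Log2 ratio of counts per coding base between related Eif genes, the gene named on the left of the slash over the other, with points for the libraries and grey bars for the exact 95% interval of the summed counts. Eif4a1 lay below Eif4a2 and Eif4a3 and Eif5a above Eif5a2 in every library; Eif3j1 over Eif3j2 rests on 27 against 1 counts and has a ratio in library 1 only.

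By exon length, which includes untranslated parts, several of these log2 ratios moved by over 1.5-fold: to -1.89 for Eif4g1 over Eif4g2, -4.32 for Eif4a1 over Eif4a3, 6.19 for Eif5a over Eif5a2, -1.33 for Eif1 over Eif1b and -1.02 for Eif1a over Eif1ax. The same held for Eif2s2 over Eif2s3x (3.70), Eif2ak4 over Eif2ak1 (-2.39), Eif4ebp1 over Eif4ebp2 (2.09), Eif4ebp2 over Eif4ebp3 (0.02), Eif3j1 over Eif3j2 (3.46) and Eif4e over Eif4e3. The direction stayed the same in each but Eif4e over Eif4e3.

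Of the late factors, Eif5b, the GTPase that joins the subunits, had 947, 850 and 913 counts, or 286, 276 and 328 CPM, highest in library 3, and 16.8% of its exon length overlaps the opposite-strand gene Rev1. Eif5, which makes eIF2 hydrolyse its GTP, had 733, 719 and 682 counts. Eif6, which keeps free large subunits from joining early, had 341, 337 and 322 counts (109 ± 6.45 CPM). Eif5a, a factor for elongation and termination despite its name and the protein that carries hypusine, had 758, 740 and 753 counts and 1.62 counts per coding base. Its paralog Eif5a2 had 32, 18 and 15, and Eif5a was 34.4-fold denser by summed counts (26.9 to 44.7, log2 4.75 to 5.48). The log2 density ratios were 4.56, 5.35 and 5.64 in libraries 1, 2 and 3. Libraries 1 and 3 thus lay outside the interval, which covers counting error alone. No 31-mer is common to both genes, although 41.7% of the coding 31-mers of Eif5a stand in pseudogenes. The difference between the genes shows in the middle of the longest coding exon of Eif5a and the matching part of Eif5a2, with the 14 differing bases in capitals.
Eif5a, chr11:69919204-69919263, minus strand: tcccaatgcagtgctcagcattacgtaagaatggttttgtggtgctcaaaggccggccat
Eif5a2, chr3:28782104-28782163, plus strand: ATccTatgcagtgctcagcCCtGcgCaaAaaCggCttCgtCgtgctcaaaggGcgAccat

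Whether Eif counts differed between the libraries was tested against the library totals, for every gene with 30 or more summed counts, by a chi-square test with Benjamini-Hochberg adjustment over all 10043 genes. This test allows for counting noise only. Of 49 Eif genes tested, 16 passed at 0.05, which is 32.7%, against 22.7% of all genes tested (2277). A gene with more counts gives the test more power, and Eif genes are more highly counted than most, so nothing particular to Eif genes is read from that difference. By factor number, 1 of 5 eIF1 genes, 3 of 13 eIF2 genes, 6 of 12 eIF3 genes, 4 of 14 eIF4 genes and 2 of 4 eIF5 genes passed, and Eif6 did not (adjusted p = 0.483, chi-square test). Eif3j1, Eif3j2, Eif4e1b and Eif4ebp3 had too few counts to be tested. By edgeR's quasi-likelihood test of each library against the other 2, which estimates spread from the other 2 libraries with information shared over genes, and assumes that the lone library varies like them, no Eif gene passed, against 0.395% of all genes (38 of 9620). At an unadjusted p under 0.05 in any of the 3 contrasts, 6 of the 49 Eif genes passed, against 14.1% of all genes. By DESeq2 almost no gene passed in these contrasts and no Eif gene did, so nothing particular to Eif genes is read from it. The lowest adjusted p by edgeR was 0.0905 for Eif2b5.

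The strongest of the 16 by the chi-square test was Eif2b5, whose lowest library was 3 (adjusted p = 1.68e-05, highest over lowest CPM 1.65). Next were Eif4a3, highest in library 3 (adjusted p = 0.000441, ratio 1.26), and Eif3f, highest in library 2 (adjusted p = 0.000996, ratio 1.41). Eif2b4 (ratio 1.32) and Eif2ak2 (ratio 1.24) were lowest in library 1, where the B cell marker sum was lowest as well (148 CPM, against 427 and 374). Of the 16 genes, 10 were lowest in library 1: these and Eif1, Eif3e, Eif3f, Eif3h, Eif3l, Eif4g1 (ratio 1.17), Eif4g2 and Eif5a, and of all genes called 31.8% were. The part of other cells in these differences was not tested. Eif1 (ratio 1.47), Eif3b (1.32), Eif4enif1 (1.28) and Eif5b (1.19) were highest in library 3, as were Eif3a, Eif3e, Eif3h, Eif3l, Eif4g2 and Eif5a, whose ratios were only 1.08 to 1.18. Plasma cell and erythroid marker sums were highest in library 3 as well, and their part was not tested either. Library 3 also had the smallest total. Eif3e, Eif3h and Eif5a had raw counts within 5% of each other, so their CPM rises as the total falls. In all, library 3 held the highest CPM of 11 of the 16 and library 2 of 4. Among all 2277 genes called, library 3 was highest for 35.4%. Among the 49 Eif genes tested it was highest for 59.2%, against 39.3% of all genes tested, and with TMM scaling for 53.1%, against 33.2%.

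Several dense genes had raw counts that were close to each other although the library totals were not. Library 1 had 1.19 times the total of library 3 (log2 0.25). Eif5a had 758, 740 and 753 counts and Eif3h 1236, 1229 and 1219, log2 ratios of library 1 over library 3 of 0.01 and 0.02. Over the 8 Eif genes with 1 to 1.8 counts per coding base, the median log2 count ratio was 0.09 and 3 had counts within 5% of each other, and over all 394 genes in that range it was 0.10, with 26.9% of genes within 5%. Over the 27 Eif genes at 0.2 to 1 the median was 0.12, against 0.22 over all genes there, and over the 14 tested Eif genes under 0.2 it was 0.17, against 0.27. Of the dense Eif genes 5 of 8 passed the chi-square test, against 33.5% of all genes in that range. When libraries were scaled by TMM in place of totals, Eif3a, Eif3e, Eif3l, Eif4g2 and Eif5a no longer passed (adjusted p = 0.0926 to 0.252 by the chi-square test), and Eif2d, Eif4b and Eif4h did, all lowest in library 3. The cause of the near-equal counts was not tested.

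**Figure D4:**
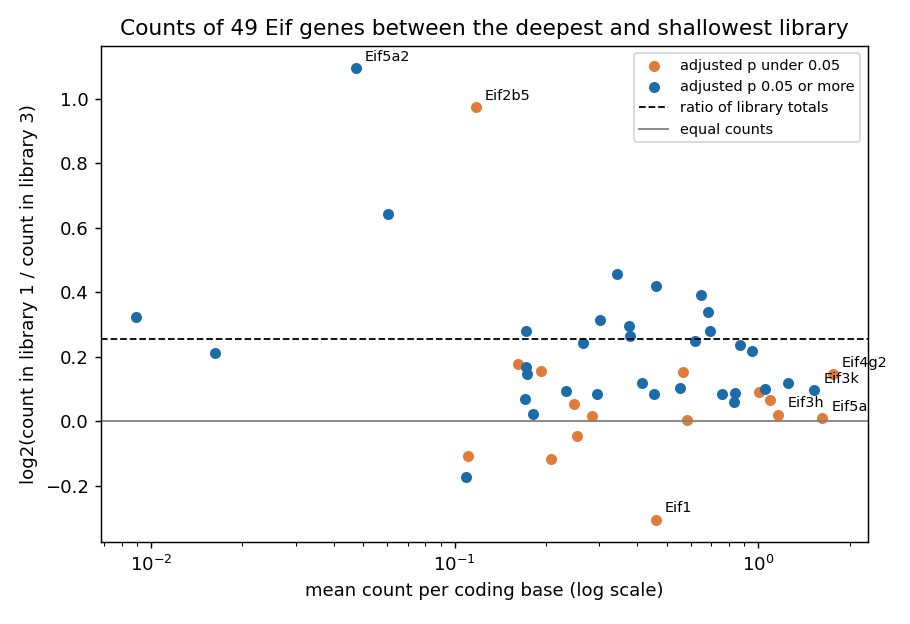
Log2 ratio of the count in library 1 over library 3 against the mean count per coding base (log axis) for the 49 Eif genes tested; colour shows the chi-square call, the dashed line the ratio of library totals (0.25) and the solid line equal counts. Points from 1 count per coding base upward, 8 genes, lie between 0.01 and 0.14, below the dashed line.

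Other genes of translation were read the same way from a list of 53 names, 52 of which matched a gene in the table. Of these, 51 were detected (median 77.6 CPM), and 17 of 49 tested differed between libraries by the chi-square test (34.7%), against 22.7% of all genes tested. As for the Eif genes, nothing particular to the list is read from this. By CPM, which is not scaled for length, elongation factor Eef2 stood first with 4393, 4457 and 4198 counts, then Cyfip1, a partner of eIF4E in repression, with 1908, 1433 and 1291, and the poly(A)-binding protein gene Pabpc1 with 1465, 1525 and 1505. Per coding base Eef2 had 1.69 counts, Eef1b2 1.55, Pabpc1 0.785 and Cyfip1 0.411. Eef1a2, known from muscle and neurons, had no count. Ppp1r15a (GADD34), which brings the phosphatase that reverses eIF2 alpha phosphorylation and is induced by stress, had 448, 434 and 656 counts. By edgeR's quasi-likelihood test of library 3 against the other 2 its adjusted p was 0.00964, and no other gene of the list passed. That contrast has 1 technical library in an arm. Its constitutive counterpart Ppp1r15b had 362, 302 and 191 counts, lowest in library 3 (adjusted p = 2.5e-05, chi-square test).

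By the chi-square test Cyfip1 passed (adjusted p = 7.15e-10), with its highest CPM in library 1. Pabpc1 passed as well (adjusted p = 7.04e-06, chi-square test), with its highest CPM in library 3. The other genes of the list that passed the chi-square test are given by role. Atf4, whose translation rises when eIF2 alpha is phosphorylated, had 657, 625 and 646 counts (adjusted p = 0.0415, chi-square test), highest per library total in library 3. Its target Ddit3, named after its values were seen, had 92, 80 and 98 counts and did not pass (adjusted p = 0.221, chi-square test). Gcn1l1, which activates the kinase of Eif2ak4, had 695, 690 and 437, lowest in library 3. Impact, which inhibits that activation, had 141, 89 and 81, highest in library 1. Among genes that act next to the initiation factors, the helicase gene Ddx3x (237, 226 and 269) and the tRNA-delivering factor gene Denr (372, 375 and 391) passed, both with their highest CPM in library 3. The cap-binding complex gene Ncbp1 (686, 550 and 475) and the recycling factor gene Abce1 (818, 757 and 589) passed too, with their lowest CPM in library 3. Of the elongation and termination genes and Eef1e1, a part of the tRNA synthetase complex, Eef1a1 (723, 713 and 711 counts, 87.98% of 31-mers shared), Eef1b2 (1052, 1027 and 1050), Eef1e1 (159, 197 and 203), Eef2 and Etf1 (583, 630 and 598) passed. With TMM scaling, Atf4, Denr and Eef1a1 no longer passed (adjusted p = 0.148, 0.0958 and 0.160 by the chi-square test), nor did they with DESeq2 size factors (0.126, 0.0831 and 0.136). Dohh, which completes hypusine on Eif5a, had 90, 147 and 79 counts, highest in library 2, with 88.5% of its 31-mers shared (adjusted p = 0.000136, chi-square test). Rps6, a ribosomal protein gene whose coding 31-mers all stand in other transcripts, had 13, 8 and 6 counts. It was named after its values were seen.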

How the data were processed

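The authors deposited whole-number counts per gene, 1 table per library. Per the notes deposited with the tables, the counts derive from alignments to mm10 with GENCODE M4; the sources used here do not name the aligner or counter, or say how strand, duplicates and multiple matches were handled. Symbols, positions, coding lengths and transcript sequences came from GENCODE M21 of GRCm38, the same assembly as mm10, and 22195 of 22457 identifiers matched a symbol. CPM used the library totals (2782259 to 3316275 counts). Intervals of ratios are exact Clopper-Pearson and those of counts exact Poisson (95%). Both reflect counting error of independent reads alone, and they are too narrow where reads are copies of the same molecule. The chi-square test had 2 degrees of freedom and a minimum of 30 summed counts. edgeR 4.0.16 (TMM, filterByExpr, quasi-likelihood) and DESeq2 1.42.0 compared each library with the other 2. The chi-square and edgeR steps were run on simulated counts with known changes in 200 genes and no spread beyond counting noise. That run cannot show how the tests behave with the spread of these libraries. Shared sequence was measured with 31-mers of the longest coding sequence, both strands. Members, gene lists and tests were chosen with earlier results of these data known. Per-library counts are printed for members that differ between libraries, the highest 2 and the lowest of each factor number, members of the compared pairs, and undetected members, by rule. Other members with per-library counts were added after their values were seen. Of the other translation genes, the 17 that passed, the 3 highest and any at 0 are named by rule. Alternatives were other scalings, filters, tests, lengths and leaving out each library.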

Additional observations from a re-analysis of the deposited data

How the results depend on the processing

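The depth of 2782259 to 3316275 counts limits statements on members with few counts. No paired analysis was possible because the series holds 1 group. The number of detected Eif genes was 48 at a threshold of 5 CPM, 50 with TMM or DESeq2 size factors and 50 to 51 without each library, and the Eif share of counts was 1.10% to 1.13% without each library. The count of Eif genes differing between libraries was 14 with TMM or DESeq2 size factors (11 of them among the 16), 16 with no filter or 100 summed counts, 5 to 13 when each library was left out (7 on leaving out library 1, 5 on leaving out library 3), 0 by edgeR and 0 by DESeq2. For all genes it was 38 by edgeR and 2 by DESeq2, and 904 to 1466 without each library. For the other translation genes it was 14 to 17 with other scalings and filters, 1 by edgeR, 0 by DESeq2, and 5 to 16 without each library. Leaving out a library compares fewer. The range of density over eIF3 subunits, 133-fold with Eif3j1, was 493-fold by exon length, 13.8-fold over the 7 subunits sharing under 10% of 31-mers and 110-fold to 167-fold without each library. Without Eif3j1, density by exon length ran from 0.0800 counts per exon base for Eif3b to 0.762 for Eif3h. That range is narrower than the 13.8-fold range of the same subunits by coding length. By exon length, 1 of 16 pairs reversed, Eif4e over Eif4e3 (log2 -0.08, or -0.0760), 13 moved by more than the SD between libraries and 2 did not. For 1 of these 2, Eif3j1 over Eif3j2, which has a ratio in library 1 only, the yardstick was its counting interval in place of an SD. With other scalings, the mean CPM of each Eif gene moved by no more than its SD. Leaving out 1 of 3 libraries cannot move a mean by more than that SD, so nothing is read from that comparison.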
